A study of Arabidopsis thaliana with 48 samples.

Results

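Roots of the Arabidopsis double mutant line eil3 eil1 were compared with roots of the line eil3 at low sulfate, with 3 libraries in each group, together 6 of the 48 libraries of the series. The 2 groups were taken by their genotype, treatment and organ labels, and all 21954 loci that passed the filter on low counts were tested. Both groups carried the T-DNA insertion label SALK_089129 in EIL3 (AT1G73730), and the double mutant carried in addition SALK_042113 in EIL1 (AT2G27050), so the labelled difference between them is the eil1 insertion. Both were in the Col-0 ecotype, and seedlings of both had spent 18 days on agarose plates holding 0.015 mM magnesium sulfate and 0.75 mM magnesium chloride (-S). The reference groups used below were the same genotypes at 0.75 mM magnesium sulfate without the added chloride (+S), the same genotypes' shoots at -S, and eil1 and Col-0 roots at -S, again with 3 libraries each. In the names of levels, CPM is the count scaled to the library's TMM-adjusted total, given as mean ± SD of 3 libraries, and changes are log2 fold changes ± SE, eil3 eil1 minus eil3.

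EIL3, whose other name is SLIM1, controls many of the genes that plants turn on or off when sulfur is short. It belongs to the family of EIN3, whose members EIN3 and EIL1 act at the end of the ethylene signalling pathway and are held at low abundance by the F-box proteins EBF1 and EBF2 when ethylene is absent. When sulfate is scarce, Arabidopsis roots are known to raise sulfate uptake carriers and a co-regulated set of genes named after O-acetylserine (the OAS cluster), and to lower genes for glucosinolates, sulfur-rich defence compounds made from methionine or tryptophan.

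Of the 21954 loci, 209 were higher (0.952%) and 142 lower (0.647%) in eil3 eil1 than in eil3 by the edgeR quasi-likelihood test, with p-values adjusted by Benjamini-Hochberg across the loci and a threshold of 0.05, together 351 loci or 1.6%. These are the loci said below to have risen or fallen. Most of the 351 changes were small: 70 were at least 2-fold, 49 upward and 21 downward, and the median size was 0.587 on the log2 scale. In 350 of the 351 the 3 libraries of the groups did not overlap, whereas over all loci tested 9.46% had groups that did not overlap upward and 7.65% downward. The compared libraries held 28320392 to 36728616 estimated counts. Left without eil3 replicate 1 or eil3 eil1 replicate 1, the test called 150 and 151 loci. Among the libraries of the other groups in the same fit, eil1 +S replicate 1 summed to 3450 CPM of green tissue markers against 1086 and 1461 CPM in its fellow replicates. It and Col-0 +S replicate 1, doubted in earlier work on these data, were left out together as an alternative, with 388 loci called. By the green tissue markers Col-0 +S replicate 1 did not stand apart, at 1577 CPM against 1857 and 1502 CPM in its fellow replicates. In bulk root RNA, fewer cells of a type and less RNA per cell cannot be told apart.

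**Figure D1:**
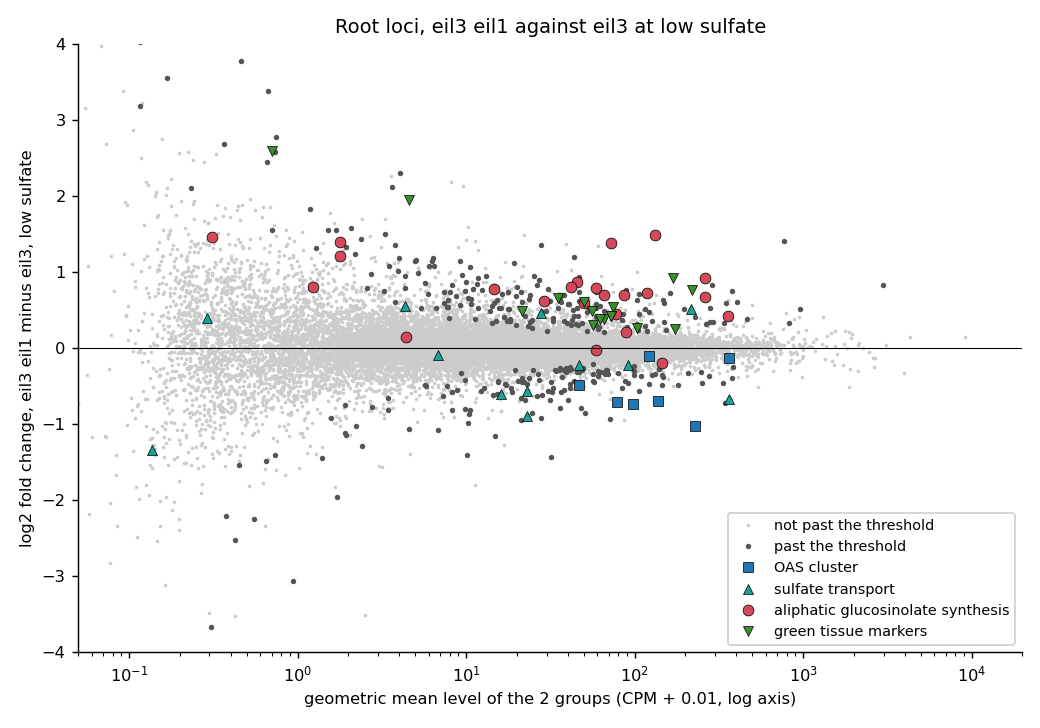
Log2 fold change between eil3 eil1 and eil3 low-sulfate roots (vertical axis) against the geometric mean level of both groups in CPM (horizontal log axis), 1 point per locus, with loci past the threshold in dark grey and members of 4 gene lists in colour, whether or not they passed. OAS cluster members lie below 0 and aliphatic glucosinolate genes mostly above, while 47 loci fall outside the axes.

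To show the loci on which the results turn, the 250 bases before the annotated start of 4 of them are given, read from TAIR10.1 by the RefSeq annotation, 5′ to 3′ on the gene's strand. SDI1 and SULTR1;2 fell and BCAT4 and MAM1 rose. They lie at chr5:19807854-19808103 (minus strand) for SDI1, chr1:29327265-29327514 (plus) for SULTR1;2, chr3:6849583-6849832 (minus) for BCAT4 and chr5:7702791-7703040 (plus) for MAM1. Capitals mark GAGAC, the core letters of a sulfur-responsive element, and ATGTA, core letters bound by EIN3 and its relatives, each searched on both strands.
SDI1: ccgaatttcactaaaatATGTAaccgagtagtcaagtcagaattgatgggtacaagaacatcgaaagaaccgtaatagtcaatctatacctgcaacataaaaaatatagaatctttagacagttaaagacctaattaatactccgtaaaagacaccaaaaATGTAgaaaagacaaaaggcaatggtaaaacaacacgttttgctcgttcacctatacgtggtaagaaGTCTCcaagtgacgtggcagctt
SULTR1;2: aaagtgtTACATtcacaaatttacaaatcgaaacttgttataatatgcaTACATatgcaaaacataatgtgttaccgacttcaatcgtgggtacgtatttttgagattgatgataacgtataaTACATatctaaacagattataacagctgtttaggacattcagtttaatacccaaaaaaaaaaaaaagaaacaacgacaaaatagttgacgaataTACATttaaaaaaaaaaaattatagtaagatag
BCAT4: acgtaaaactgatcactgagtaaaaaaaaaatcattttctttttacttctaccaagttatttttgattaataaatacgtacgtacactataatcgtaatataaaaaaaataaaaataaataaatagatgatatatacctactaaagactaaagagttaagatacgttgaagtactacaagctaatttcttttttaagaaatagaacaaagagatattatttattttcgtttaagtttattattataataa
MAM1: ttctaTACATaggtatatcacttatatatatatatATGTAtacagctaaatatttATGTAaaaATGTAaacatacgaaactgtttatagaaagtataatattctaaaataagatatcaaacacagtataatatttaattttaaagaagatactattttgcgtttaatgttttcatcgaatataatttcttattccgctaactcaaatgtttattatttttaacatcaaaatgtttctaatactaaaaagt
The SDI1 window held GAGAC 1 time and ATGTA 2 times, the SULTR1;2 window ATGTA 4 times, the BCAT4 window neither, and the MAM1 window ATGTA 4 times. These letters are common: among 27443 windows of the same length before protein-coding nuclear loci, 7067 (25.8%) held GAGAC and 14284 held ATGTA. Of the loci that passed the test, the first motif stood in 47 of the 196 windows of loci that rose and 28 of the 133 windows of loci that fell, and the second in 110 and 70. A match is a description of the letters in this window only.

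The targeted transcripts went with the labels for EIL1 and against them for EIL3. EIL1 stood at 49.4, 56.9 and 51.0 CPM in the eil3-labelled libraries and at 21.7, 17.4 and 19.4 CPM in the eil3 eil1-labelled ones. The groups were far apart, and the change was -1.43 ± 0.10 (edgeR quasi-likelihood adjusted p = 7.61e-08). EIL3 stood at 16.9, 11.9 and 15.7 CPM in eil3 and at 22.4, 20.96 and 20.3 CPM in eil3 eil1. The double mutant libraries thus held more EIL3 transcript than the eil3 libraries (0.52 ± 0.10, edgeR quasi-likelihood adjusted p = 0.00798) and stood near the Col-0 level of 22.2 ± 0.649 CPM. That call was lost without eil3 eil1 replicate 1 and with only the compared groups in the fit, where the adjusted p reached 0.101. EIL3 was also higher in eil3 eil1 than in eil3 in other libraries. In +S roots it was at 15.77 ± 2.08 CPM in eil3 and 21.65 ± 1.85 CPM in eil3 eil1, without overlap. That change of 0.46 ± 0.10 did not pass (edgeR quasi-likelihood adjusted p = 0.156). In -S shoots the levels were 22.75 ± 2.99 and 35.01 ± 3.46 CPM, a comparison not tested by itself. A count per locus does not show where along the transcript the reads lie, so the insertions themselves were not checked here, and genotypes are given as labelled. EIN3, the closest relative of EIL1, was at 184 and 169 CPM and did not pass (-0.12 ± 0.06). EIL2, a further family member, was under 1 CPM in every one of the 6 libraries, and the family members AT5G10120 and AT5G65100 did not pass the filter on low counts.

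**Figure D2:**
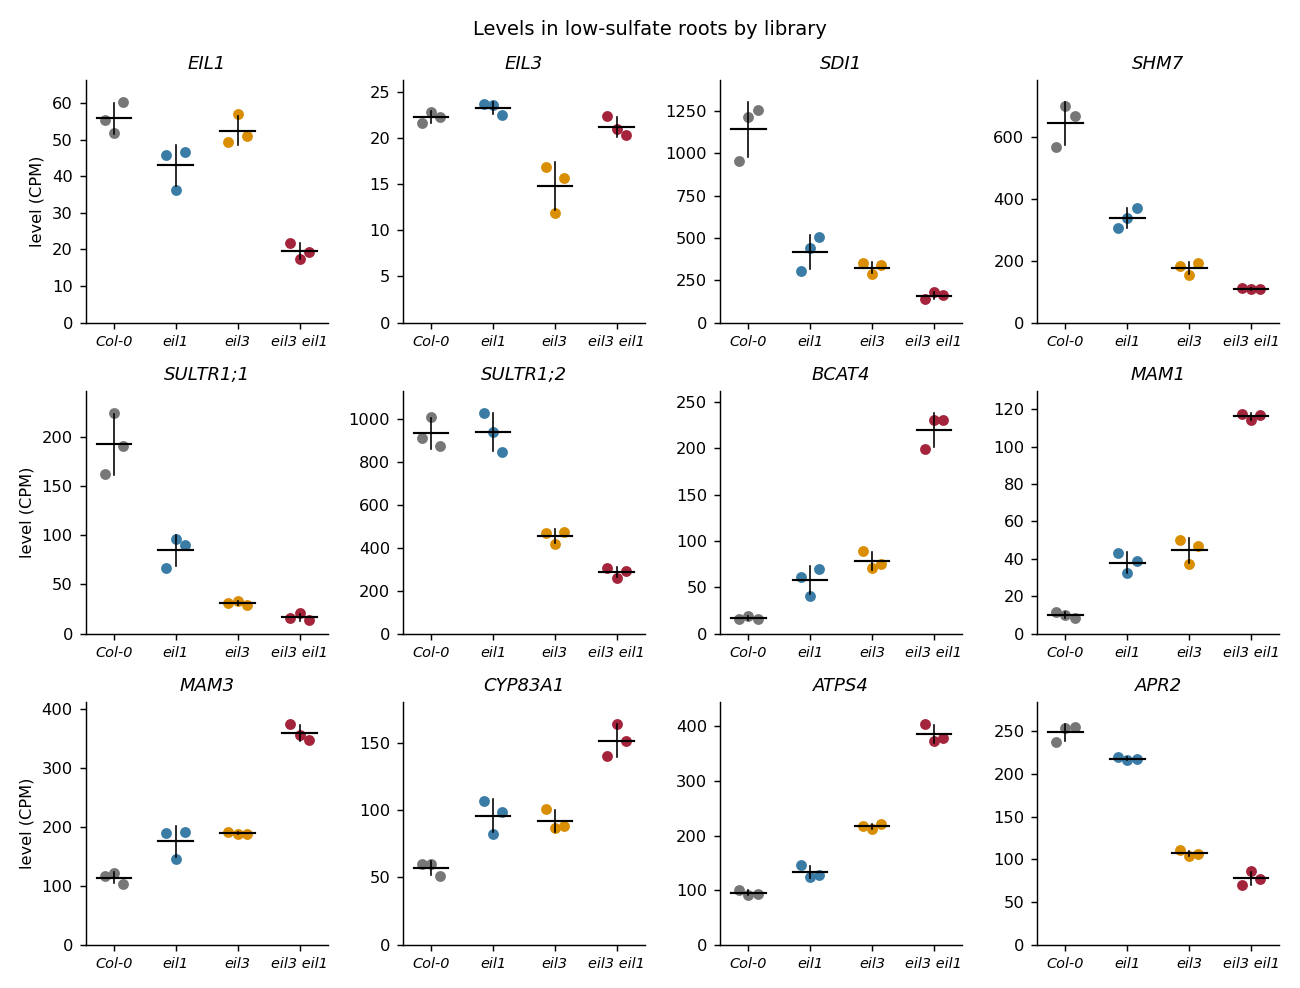
Levels in CPM (vertical axes, from 0) of 12 loci in the 3 low-sulfate root libraries of each of 4 labelled genotypes, with points for libraries, horizontal lines for means and vertical lines for ± SD. EIL1 is lowest in eil3 eil1, SDI1, SHM7 and both uptake carriers are lower in eil3 eil1 than in eil3, and BCAT4, MAM1, MAM3, CYP83A1 and ATPS4 are higher.

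Genes of the OAS cluster were lower in the double mutant. Of 7 members 4 fell and 0 rose, and the median change was -0.70, against 0.01 over all loci tested. SDI1 (AT5G48850), a repressor of glucosinolate synthesis genes, stood at 349, 286 and 340 CPM in eil3 and at 136, 179 and 163 CPM in eil3 eil1. The groups did not overlap, and the change was -1.03 ± 0.18 (edgeR quasi-likelihood adjusted p = 0.00238). SHM7 (AT1G36370), a serine hydroxymethyltransferase, stood at 183, 154 and 191 CPM in eil3 and at 111, 107 and 107 CPM in eil3 eil1. Its eil3 eil1 libraries were all below every eil3 library (-0.70 ± 0.08). LSU1 and LSU2, named for their response to low sulfur, fell by 0.71 ± 0.13 and 0.73 ± 0.11. They are members of 1 family, and reads shared between them were not measured and may make their separate levels uncertain. Of the other 3 members, GGCT2;1, a gamma-glutamyl cyclotransferase of glutathione breakdown, was at 55.5 ± 9.41 CPM in eil3 and 39.5 ± 9.72 CPM in eil3 eil1, with overlapping libraries. APR3, an adenosine phosphosulfate reductase, had a change of -0.13 ± 0.09, and AT1G04770, a tetratricopeptide repeat protein related to SDI1, one of -0.11 ± 0.08.

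These levels lay at the bottom of a wide range. SDI1 was at 1140 ± 164 CPM in Col-0, 417 ± 101 in eil1, 325 ± 34.4 in eil3 and 159 ± 21.5 in eil3 eil1 at -S. The eil1 and eil3 libraries overlapped, while Col-0 lay above and eil3 eil1 below all others. At +S the same gene was at 23.1 ± 3.93 CPM in eil3 and 31.8 ± 4.73 in eil3 eil1. The double mutant at -S therefore still held more SDI1 transcript than either genotype at +S, and the same was true of SHM7, with 108 ± 2.33 CPM in eil3 eil1 at -S and 62.7 ± 4.58 and 59.8 ± 1.76 CPM in eil3 and eil3 eil1 at +S. No test of that sulfate response within eil3 eil1 was made here.

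Sulfate carriers fell in 4 of 12 members tested and rose in 0. Only 2 fell without eil3 replicate 1, without eil3 eil1 replicate 3, or with only the compared groups in the fit. SULTR2;1 passed upward by DESeq2 and SULTR3;4 by edgeR without eil3 eil1 replicate 2. SULTR1;2 (AT1G78000), the main sulfate uptake carrier of the root, stood at 471, 420 and 475 CPM in eil3 and at 306, 260 and 293 CPM in eil3 eil1 (-0.67 ± 0.12, edgeR quasi-likelihood adjusted p = 0.00355). SULTR1;1 (AT4G08620), the high-affinity uptake carrier induced by sulfur starvation, stood at 31.3, 33.1 and 29.2 CPM in eil3 and at 15.6, 20.8 and 13.7 CPM in eil3 eil1 (-0.90 ± 0.19). In both the groups were separate. SULTR4;2, which exports sulfate from the vacuole, changed by -0.57 ± 0.10, and SULTR2;2, a carrier of vascular tissue, by -0.60 ± 0.13. The call of SULTR2;2 was lost in 6 of 14 alternative settings, that of SULTR1;1 in 4 and that of SULTR4;2 in 1. SULTR2;1, a carrier of xylem parenchyma and phloem, did not pass by edgeR, with 182, 144 and 214 CPM in eil3 and 298, 231 and 240 CPM in eil3 eil1. SULTR4;1, the second vacuolar exporter, had a change of -0.22 ± 0.08 and did not pass.

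The 2 root uptake carriers differed in their change from Col-0 to eil1. SULTR1;1 was at 192 ± 30.9 CPM in Col-0 and 84.5 ± 15.7 in eil1, and the change from Col-0 to eil1 was -1.18 (edgeR quasi-likelihood adjusted p = 0.00069). SULTR1;2 was at 934 ± 70.5 CPM in Col-0 and 939 ± 89.9 in eil1, a difference within the spread of libraries. For SULTR1;2 the eil1 label thus came with a lower level between the 2 lines carrying eil3 but with no detectable change between Col-0 and eil1. The difference of these 2 changes, tested by itself, passed for SULTR1;2 (-0.68, edgeR quasi-likelihood adjusted p = 0.0314).

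Sulfate assimilation genes moved in both directions, with 3 of 20 higher and 2 lower. ATPS4 (AT5G43780), an ATP sulfurylase that activates sulfate, stood at 218, 211 and 222 CPM in eil3 and at 404, 374 and 380 CPM in eil3 eil1. The rise was 0.83 ± 0.09 (edgeR quasi-likelihood adjusted p = 1.37e-05), in libraries that were far apart. ATPS1, another ATP sulfurylase, rose by 0.44 ± 0.07, and APK2, an APS kinase that leads to the sulfate donor used in glucosinolate synthesis, by 0.49 ± 0.08. The genes that fell were APR2, an adenosine phosphosulfate reductase of the reductive branch, by 0.46 ± 0.07, and SERAT3;2, a serine acetyltransferase. SERAT3;2 was scarce, with 2.87 ± 0.482 CPM in eil3 and 1.28 ± 0.415 in eil3 eil1, and its call was lost in 3 of 14 alternative settings. APR1, sulfite reductase SIR and the O-acetylserine thiol-lyases OASA1, OASB and OASC had changes between 0.00 and 0.08 and did not pass. Of 7 glutathione genes 0 passed by edgeR and 0 by DESeq2, and 3 had an unadjusted p under 0.05.

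Genes of aliphatic glucosinolate synthesis, which build side chains from methionine and turn them into glucosinolates, rose together. Of 23 members tested, of 24 listed, 17 rose and 0 fell, and the median change was 0.72. BCAT4 (AT3G19710), the aminotransferase that starts side chain elongation, stood at 89.4, 70.9 and 75.2 CPM in eil3 and at 199, 230.3 and 230.9 CPM in eil3 eil1. Every double mutant library held more than 2 times the level of any eil3 library, and the change was 1.49 ± 0.14 (edgeR quasi-likelihood adjusted p = 1.99e-06). MAM1 (AT5G23010), which condenses the elongating chain, stood at 49.99, 37.0 and 46.6 CPM in eil3 and at 117.4, 114 and 117 CPM in eil3 eil1 (1.38 ± 0.12, adjusted p = 6.31e-07 by the same edgeR test). MAM3, its neighbour and a related copy, rose from 189 ± 1.46 to 358 ± 13.9 CPM. Reads shared between both were not measured and may make their separate levels uncertain.

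Later steps of elongation rose too. IMD1, a dehydrogenase, rose by 0.68 ± 0.09, the isomerase subunits IPMI1, IPMI2 and IIL1 by 0.70 ± 0.11, 0.79 ± 0.12 and 0.43 ± 0.06, and BAT5, the carrier of 2-keto acids into plastids, by 0.59 ± 0.08. Of core structure formation, CYP83A1, the oxime-metabolising cytochrome P450, stood at 101, 87.05 and 87.9 CPM in eil3 and at 140.0, 164 and 151 CPM in eil3 eil1. CYP83A1 rose by 0.72 ± 0.09 and CYP79F2, which makes the aldoximes, by 0.70 ± 0.11. CYP79F1, a near copy of CYP79F2, had under 1 CPM in both groups and did not pass. The glutathione S-transferases GSTU20 and GSTF11 rose by 0.86 ± 0.08 and 0.78 ± 0.11, the glycosyltransferase AT2G31790 by 0.80 ± 0.10, and the sulfotransferases SOT17 and SOT18 by 0.62 ± 0.08 and 0.45 ± 0.08. Of the side chain oxygenases, FMO-GSOX1 and FMO-GSOX3 rose from 1.17 to 2.72 and from 1.097 to 2.89 CPM. FMO-GSOX4, the most abundant of them, was at 156 and 136 CPM and did not pass (-0.20 ± 0.10), nor did FMO-GSOX2, FMO-GSOX5, BCAT3 or AOP2. All 17 calls were kept under each of 14 alternative settings.

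**Figure D3:**
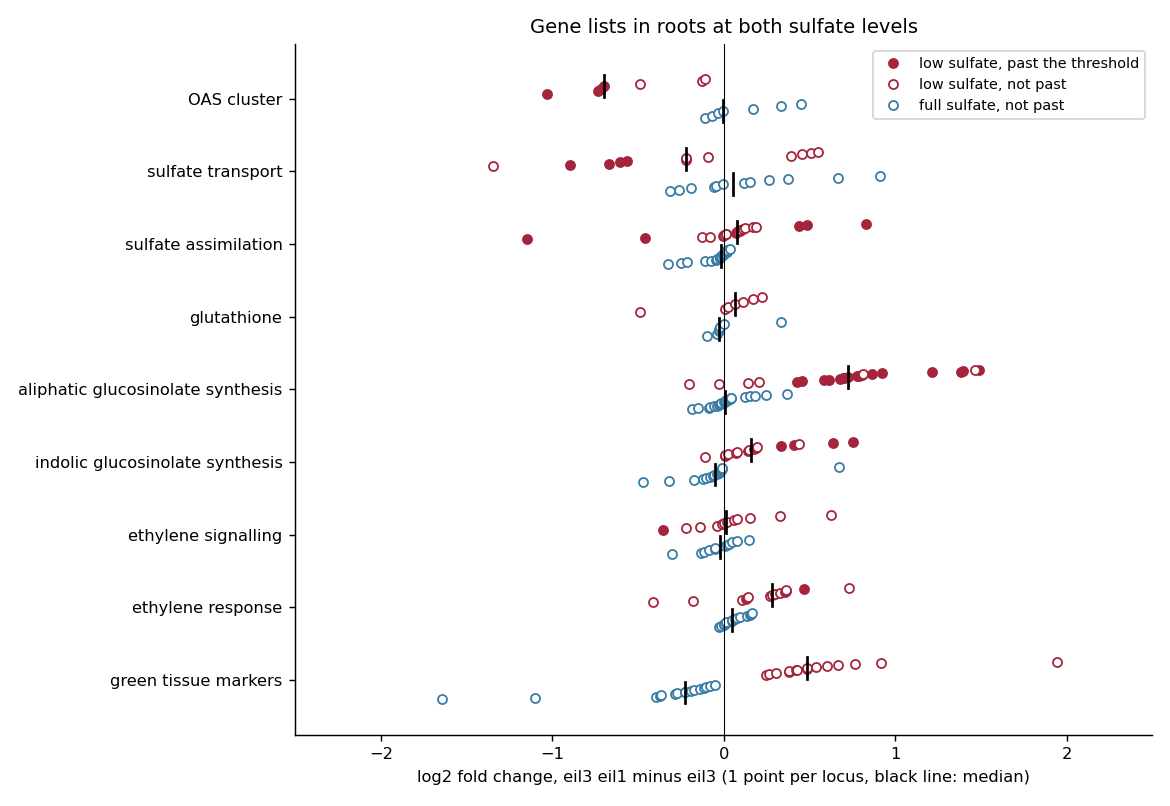
Log2 fold change between eil3 eil1 and eil3 roots (horizontal axis) of each tested member of 9 gene lists at low sulfate (red) and full sulfate (blue), filled where past the threshold, with black lines for list medians and 3 values outside the axis. At low sulfate the medians of the OAS cluster and the aliphatic list are -0.70 and 0.72, and at full sulfate they are -0.01 and 0.01.

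Indolic glucosinolate synthesis, which starts from tryptophan, rose in 4 of 16 members. CYP79B3 and CYP79B2, the P450 enzymes that convert tryptophan to its aldoxime, rose by 0.75 ± 0.13 and 0.64 ± 0.11, the methyltransferase IGMT5 by 0.41 ± 0.08 and the glutathione S-transferase GSTF9 by 0.33 ± 0.08. CYP79B3 stood at 48.6, 42.3 and 50.6 CPM in eil3 and at 74.5, 82.4 and 81.7 CPM in eil3 eil1, without overlap. The call of GSTF9 was lost in 7 of 14 alternative settings and that of IGMT5 in 1, and both were lost without eil3 replicate 2, where 2 of the 16 rose. The next cytochrome P450, CYP83B1, was at 227 and 239 CPM and did not pass, nor did the other 11. In the supply of tryptophan, ASA1, an anthranilate synthase subunit, and TSA1, a tryptophan synthase subunit, rose by 0.33 ± 0.07 and 0.28 ± 0.05, 2 of 7 members of that list. The call of ASA1 was lost in 4 of 14 alternative settings and that of TSA1 in 1. Of the 7, 0 passed with only the compared groups in the edgeR fit, while DESeq2 called 3. Only 1 passed without eil3 replicate 1 or 3 or eil3 eil1 replicate 2.

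Of the MYB factors known to switch on these pathways 4 could be tested and 0 passed by edgeR or DESeq2, while MYB29 and MYB76 did not pass the filter on low counts. MYB28, the activator of the aliphatic pathway, was at 55.6 CPM in eil3 and 50.6 CPM in eil3 eil1 (-0.14 ± 0.11). MYB34, MYB51 and MYB122 of the indolic pathway had changes of 0.04 ± 0.07, 0.25 ± 0.17 and 0.48 ± 0.16, none past the threshold. Among 6 tested regulators only SDI1 passed. Of 18 genes of glucosinolate breakdown and transport 0 passed by edgeR and 1 by DESeq2, 8 had an unadjusted p under 0.05, and those with the smallest p were the glucosinolate transporters GTR1 (-0.27 ± 0.07) and GTR2 (0.24 ± 0.07).

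Across the labelled genotypes at -S, BCAT4 was at 16.6 ± 1.92 CPM in Col-0, 57.7 (41.15 to 70.4) in eil1, 78.5 ± 9.71 in eil3 and 220 ± 18.3 in eil3 eil1, and MAM1 at 10.03 ± 1.80, 38.01 ± 5.44, 44.5 ± 6.75 and 116 ± 1.84 CPM. In both, Col-0 was lowest and eil3 eil1 highest. The MAM1 libraries of eil1 and eil3 overlapped, and the highest BCAT4 library of eil1, at 70.4 CPM, lay just under the lowest of eil3, at 70.9 CPM. Summed over the list, the libraries held 1072 to 1211 CPM in Col-0, 1371 to 1648 in eil1, 1537 to 1666 in eil3 and 2355 to 2600.0 in eil3 eil1, with eil1 and eil3 overlapping. At +S the sums were 3254 to 3558 CPM in eil3 and 3120 to 3671 CPM in eil3 eil1, higher than in any -S group. In eil3 eil1 the low-sulfate level therefore stood between those of eil3 at -S and of both genotypes at +S.

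**Figure D4:**
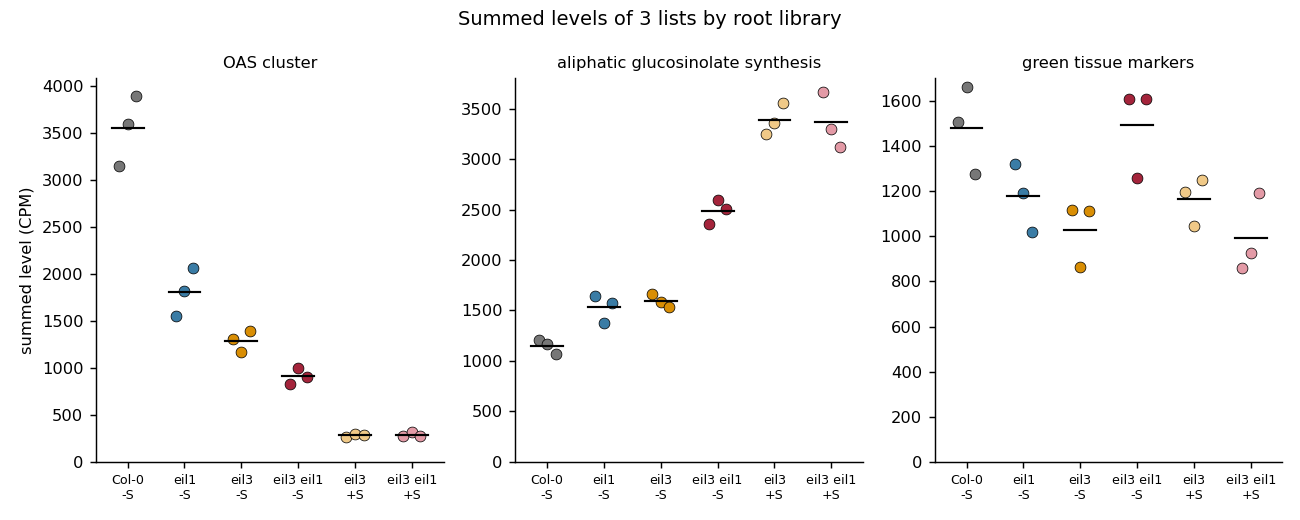
Summed level in CPM (vertical axes, from 0) of the OAS cluster, the aliphatic glucosinolate genes and the green tissue markers in each root library (points), with lines for group means, in 4 genotypes at -S and 2 at +S. At -S the OAS cluster is lowest and the aliphatic genes are highest in eil3 eil1, the aliphatic sums of eil1 and eil3 overlap, and the green tissue markers are at 863 to 1115 CPM in eil3 and 1261 to 1609 CPM in eil3 eil1 at -S.

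Markers of other tissues were read beside these groups. All 17 green tissue markers, photosynthetic genes that roots express weakly, had positive changes, with a median of 0.48. Of the 17, 0 passed by edgeR or DESeq2, with 5 at an unadjusted p under 0.05. For 11 of the 17 the groups did not overlap upward, against 9.46% of all loci tested. From eil3 to eil3 eil1 in +S roots 0 of the 17 changes were positive (median -0.23). From Col-0 to eil1 in -S roots 0 were positive too (median -0.38). With only the compared groups in the edgeR fit, and in a separate alternative without the pair of doubted +S libraries described above, 4 of the 17 passed upward each time, LHCB1.3 and RBCS1A among them. Their summed level was 863 to 1115 CPM in eil3 roots and 1261 to 1609 CPM in eil3 eil1 roots, without overlap, against 40850 to 78930 CPM in the shoots of both genotypes. LHCB1.3, a light-harvesting protein, was at 167 and 284 CPM and RBCS1A, a rubisco small subunit, at 124 and 233 CPM. RBCS2B was at 0 in 2 of 3 eil3 libraries and under 0.5 CPM in eil3 eil1. In the fit of both organs, in shoots at -S the aliphatic list summed to 743.6 to 781 CPM in eil3 and 1087 to 1390 CPM in eil3 eil1, below the root sums of 1438 to 1551 and 2194 to 2424 CPM, and in Col-0 roots the green markers summed to 1275 to 1661 CPM beside the lowest aliphatic sum. The part of green tissue in the root changes was not tested. Of the 3 phloem markers SUC2, a sucrose carrier of companion cells, passed with 33.1, 25.2 and 30.9 CPM in eil3 and 54.6, 40.6 and 40.6 CPM in eil3 eil1, and its call was lost in 6 of 14 alternative settings. Of 7 root hair, 13 endodermis and suberin, 8 xylem and 6 dividing cell markers 0 passed by edgeR or DESeq2, and 1, 2, 1 and 0 had an unadjusted p under 0.05. The root hair markers summed to 181 to 277 CPM in the roots of both genotypes and at most 6.31 CPM in their shoots.

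Of 12 ethylene signalling genes 1 passed and of 15 ethylene response genes 1, against 1.6% of all loci tested. The signalling gene was EBF2, which encodes an F-box protein that marks EIN3 and EIL1 for breakdown and is itself a target of EIN3. It stood at 144, 147 and 138 CPM in eil3 and at 118, 109 and 108 CPM in eil3 eil1. Its change of -0.36 ± 0.09 passed narrowly (edgeR quasi-likelihood adjusted p = 0.0452) and was lost in 9 of 14 alternative settings, the one without the doubted +S pair among them. EBF1 had a change of -0.22 ± 0.08 and EIN2, the membrane protein above EIN3, of -0.14 ± 0.05. Of 15 ethylene response genes HEL, a defence gene also known as PR4, rose by 0.47 ± 0.10. That call was lost without eil3 replicate 1 and without eil3 eil1 replicate 2, which left 0 of the 15 called by edgeR (DESeq2 called 2). ORA59 (0.73 ± 0.27, without overlap) and EDF3 did not pass. The median change of the 15 was 0.28, and 13 were positive. For 5 of the 15 the groups did not overlap upward, against 9.46% of all loci tested. Of 11 ethylene synthesis genes 0 passed by edgeR, while by DESeq2 1 passed upward and 1 downward and 3 had an unadjusted edgeR p under 0.05, with ACS5 at 4.40 and 2.41 CPM.

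In other nutrient lists 2 genes passed by edgeR, both lower. DESeq2 called 1 iron gene higher and 1 lower, and 3 nitrate genes lower. FIT, the master regulator of iron uptake, was at 53.8, 54.4 and 44.5 CPM in eil3 and at 38.4, 38.04 and 37.1 CPM in eil3 eil1 (-0.43 ± 0.09), the only one of 24 iron genes, and its call was lost in 3 of 14 alternative settings. NRT1.1, a nitrate carrier and sensor, was at 385, 423 and 361 CPM in eil3 and at 247, 309 and 298 CPM in eil3 eil1 (-0.45 ± 0.11), and its call was lost in 6 of 14, again with the doubted pair left out. All 7 nitrate genes had negative changes, with a median of -0.38. For 5 of the 7 the groups did not overlap downward, against 7.65% of all loci tested. Among them NIA1, a nitrate reductase, did not pass (-0.51 ± 0.14, edgeR quasi-likelihood adjusted p = 0.0618). Of 8 phosphate, 16 jasmonate, 6 flavonoid and 4 pyrimidine breakdown genes 0 passed by edgeR, 2, 1, 0 and 2 had an unadjusted p under 0.05, and DESeq2 called 1 phosphate gene and none of the others.

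Outside these lists the largest falls after EIL1 were in CLE5 and AT1G73600. CLE5, a small signalling peptide, stood at 16.2, 21.1 and 12.3 CPM in eil3 and at 5.18, 6.17 and 7.25 CPM in eil3 eil1 (-1.41 ± 0.22). AT1G73600, a predicted methyltransferase using S-adenosylmethionine, stood at 24.6, 16.0 and 26.1 CPM in eil3 and at 7.64, 10.5 and 11.8 CPM in eil3 eil1 (-1.15 ± 0.19), and AT1G73602, to which the reference gives no product, changed by -0.93 ± 0.18. The rest of the 15 largest falls with at least 5 CPM and no overlap were AT1G07550, the LOB domain factor LBD26, SDI1, the pseudogene AT4G04410, the receptor-like kinase AT5G59680, AT4G20820 of the berberine bridge enzyme family, SULTR1;1, the myosin HDK, the transporter UMAMIT17, AT4G31330 and the methionine sulfoxide reductase MSRB4. Of these falls, the call of LBD26 was lost in 5 of 14 alternative settings, that of AT4G31330 in 3, those of AT1G73602, AT5G59680 and UMAMIT17 in 2 each and that of MSRB4 in 1.

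The largest rises by the same rule were AT5G08250, a cytochrome P450, from 1.105, 3.60 and 0.782 to 9.59, 9.05 and 8.32 CPM (2.31 ± 0.32), and the dirigent-like protein DIR5 (2.12 ± 0.49). AAP3, an amino acid permease, stood at 15.9, 19.5 and 16.8 CPM in eil3 and at 67.2, 30.6 and 36.1 CPM in eil3 eil1, and the glycine-rich protein AT2G05510 at 418, 489 and 510.0 CPM in eil3 and at 1770.0, 934 and 1053 CPM in eil3 eil1. In both, and in EARLI1, a lipid transfer protein, with 93.3, 48.8 and 55.2 CPM in eil3 eil1, replicate 1 of the double mutant was the highest library. AT2G40960, an R3H domain protein, rose from 4.24 ± 0.153 to 9.62 ± 0.973 CPM. The others were RTFL7, BCAT4, MAM1, the acyltransferase PMAT2, AT1G49750, the sodium transporter HKT1, the RING finger protein RHA3B, AT3G05770 and the dehydrogenase ALDH11A3. Calls of DIR5, EARLI1, RTFL7, PMAT2, AT1G49750, HKT1, AT3G05770 and ALDH11A3 were each lost in 4 to 7 of 14 alternative settings.

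At full sulfate far fewer loci passed. In +S roots they were 12 (0.0547%), 7 higher (0.0319%) and 5 lower (0.0228%), and without eil3 eil1 replicate 2 only 3 did. EIL1 fell there by 1.76, from 53.6 ± 0.672 to 15.8 ± 2.52 CPM. SDI1 had a change of 0.45, SULTR1;2 of -0.19, BCAT4 of 0.04, MAM1 of -0.09 and ATPS4 of -0.04, none past the threshold. In the OAS cluster, the sulfate carriers, sulfate assimilation and both glucosinolate synthesis lists 0 members passed at +S by edgeR, and the list medians lay between -0.05 and 0.06. Unadjusted, 877 of 21954 loci had p under 0.05 at +S and 2846 at -S.

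The difference between the 2 sulfate levels was tested by itself, as the change at -S minus the change at +S. It passed for 83 loci (0.378%), 57 higher (0.26%) and 26 lower (0.118%), and 77 of them were among the 351 loci called at -S. Of the 17 aliphatic genes that rose, 14 passed this test as well, MAM1 with 1.47 (edgeR quasi-likelihood adjusted p = 0.000145), BCAT4 with 1.45 (adjusted p = 0.00136 by the same test) and MAM3 with 1.11. SDI1 and SHM7 passed downward with -1.48 and -0.63, ATPS4 and ATPS1 upward with 0.87 and 0.45, and CYP79B3 and CYP79B2 upward. None of the 4 sulfate carriers that fell at -S passed it, with SULTR1;1 at -1.05 (adjusted p = 0.171 by the same edgeR test) and SULTR1;2 at -0.48, so a different change at the sulfate levels was not shown for them. EIL1 did not pass either (0.33).

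Of the 12 loci called at +S, 11 were also called at -S, all in the same direction, and the remaining one was CYP86B1, an enzyme of suberin and wax monomer synthesis. AT5G08250 and AT2G40960 rose by 2.23 and 1.01 at +S, close to their changes at -S, and MSRB4 and MSRB5, neighbouring methionine sulfoxide reductases, had changes of -0.84 and -0.47. Several were counted in few reads. The pseudogene AT5G44925 had 0, 0 and 0 counts in eil3 at -S and 47, 112 and 43 in eil3 eil1, and the noncoding RNA AT2G01422 had 110, 78 and 70 counts in eil3 and 2, 6 and 24 in eil3 eil1. The others were AT4G04410, AT5G35890, AT4G07820, AT4G04223 and EIL1.

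**Figure D5:**
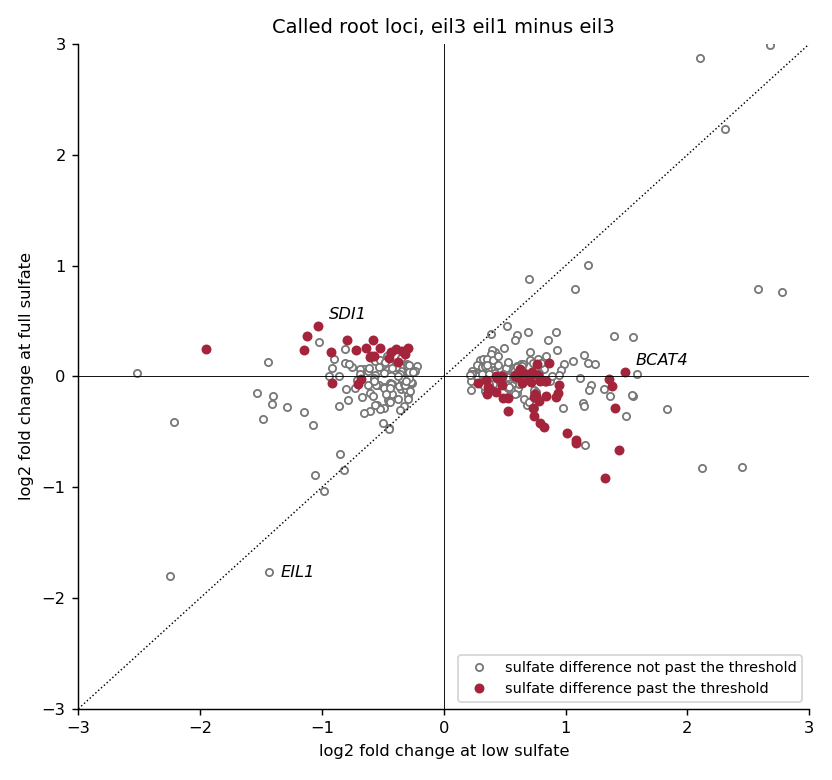
Log2 fold change between eil3 eil1 and eil3 roots at full sulfate (vertical axis) against that at low sulfate (horizontal axis) for the 351 loci called at low sulfate, filled where the sulfate difference passed, with a dotted line of equal change and 15 loci outside the axes. For 315 of the 351 the change at full sulfate is under 0.5 in size, while EIL1 lies near the dotted line.

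Col-0 and eil1 roots at -S share no library with the compared groups and differ by the same labelled insertion without eil3. There 551 loci passed (2.51%), 292 higher (1.33%) and 259 lower (1.18%), and without eil1 replicate 1 they were 187. Of the 351 loci, 84 passed there too, which is 23.9% of the 351 and 15.2% of the 551, and 56 of the 84 moved in the same direction. Counted whether or not they passed there, 174 of the 351 had a change in the same direction. Aliphatic genes rose in 15 of 23 in that comparison, MAM1 by 1.92 and BCAT4 by 1.79, and 6 of 7 OAS cluster genes fell. NRT1.1 and FIT, lower in eil3 eil1 than in eil3, were higher in eil1 than in Col-0. Their changes from Col-0 to eil1 were 0.47 and 0.34 (edgeR quasi-likelihood adjusted p = 0.0255 and 0.037). EIL1 transcript itself differed less there, with 55.9 ± 4.28 CPM in Col-0 and 42.96 ± 5.72 in eil1 (-0.38, edgeR quasi-likelihood adjusted p = 0.0406). In +S roots EIL1 stood at the same level in both, 51.4 ± 1.46 CPM in Col-0 and 51.4 ± 2.25 CPM in eil1, a comparison not tested here. The difference of the 2 differences passed for 541 loci (2.46%), 306 higher (1.39%) and 235 lower (1.07%), and without Col-0 replicate 3 for 303. For MAM1 (-0.54) and BCAT4 (-0.31) it did not pass, and for CYP79B3 it passed with -0.81, a smaller rise from eil3 to eil3 eil1 than from Col-0 to eil1. NRT1.1 (-0.93) and FIT (-0.77) passed it as well.

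Shoots of the 2 genotypes at -S were used for the difference between organs, fitted on 12 libraries. The root change minus the shoot change passed for 5158 of 22403 loci (23%), 2596 higher (11.6%) and 2562 lower (11.4%), of which 155 were among the 351. All 17 green tissue markers were among the higher ones, and their part in these differences was not tested. The OAS cluster held no member that passed, and SDI1 was lower in eil3 eil1 in shoots too, at 636 CPM in eil3 and 374 CPM in eil3 eil1. BCAT4 (15.2 and 51.4 CPM) and MAM1 (37.7 and 99.9 CPM) were likewise higher in eil3 eil1 shoots, with organ differences of -0.27 and -0.02 that did not pass. MAM3 stood apart, with 11.8 and 11.6 CPM in shoots and an organ difference of 0.95 (edgeR quasi-likelihood adjusted p = 0.00048). Of the 16 indolic members 11 passed upward, a higher change in roots than in shoots, and the other 5 had positive differences that did not pass. These organ counts moved with single shoot libraries and with the scaling. Without eil3 shoot replicate 1, 2688 loci passed upward and 1270 downward, without shoot replicates 2 and 3 of eil3 1408 and 1702 passed downward, and without shoot replicates 1 and 2 of eil3 eil1 1500.0 and 1712. With RLE size factors 3391 loci passed upward and 1825 downward, in place of 2596 and 2562.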

How the data were processed

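RNA was sequenced from 48 Arabidopsis libraries (24 root, 24 shoot) with a stranded mRNA kit, per the labels' protocols. Per the submitters' processing notes, reads were trimmed with Trimmomatic 0.36, checked with FastQC and quantified with kallisto 0.43.1 on TAIR10. The deposited table gives an estimated count and a TPM value per locus, both made by the authors with kallisto. Whether strand was used in quantification is not given in the sources used here. Of the counts 7.80% were not whole, and all were rounded. Of 22024 multi-exon loci, in 75.3% the length given for the target was nearer to the span of the gene than to a spliced transcript, so reads of overlapping and antisense genes may be shared.

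Root counts of 24 libraries in 8 groups were tested in edgeR 4.0.16 (quasi-likelihood F test, TMM, filterByExpr, Benjamini-Hochberg over all loci, threshold 0.05, R 4.3.3), and 12 libraries in 4 groups for the difference between organs. SE is the size of the log2 change over the square root of F, and is approximate. DESeq2 1.42.0, limma 3.58.1 on log2(TPM + 1) of the deposited TPM, other scalings, a replicate block, fits of fewer groups and each library left out were the alternatives. At +S the same-numbered eil3 and eil3 eil1 root libraries deviated together, though weakly (correlations 0.187, 0.175 and 0.31). Each correlated more with its same-numbered library than with the others. A pairing by number is thus possible there but was not established, and no label states a shared batch. The main fit takes no account of such pairs, while the replicate block does. The fits were checked on simulated counts in which 200 loci had been changed. The libraries are labelled biological replicates; total counts were 26615731 to 38269932 in roots and 27029056 to 37809176 in shoots, which sets the counting precision.

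Named loci were the EIN3 family, members of the sulfur and glucosinolate lists, the 15 loci that changed most each way among those called with at least 5 CPM and no overlap, up to 4 members with the smallest p of each other list, and up to 6 loci with the smallest p in each difference test; loci called at +S were named after their values were seen. The 25 lists were the OAS cluster, sulfate transport, sulfate assimilation, glutathione, aliphatic and indolic glucosinolate synthesis, glucosinolate regulators, glucosinolate breakdown and transport, tryptophan and camalexin, EIN3 and EIL factors, ethylene signalling, response and synthesis, iron, nitrate, phosphate, jasmonate, flavonoid, pyrimidine breakdown, and markers of green tissue, root hair, endodermis and suberin, xylem, phloem and dividing cells. Members and lists were chosen with earlier results of these data known.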

Additional observations from a re-analysis of the deposited data

Results flagged for a closer look

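Groups of 3 libraries were not searched for outlying libraries, so what follows are differences between groups that passed edgeR's quasi-likelihood test of the difference itself, at adjusted p under 0.05. The change from eil3 to eil3 eil1 in roots differed between -S and +S for 83 loci. Those with the smallest p were MAM1 (1.47), MAM3 (1.11), BCAT4 (1.45), TPPI (-0.91), a trehalose phosphate phosphatase, AT1G21440 (0.76), a phosphoenolpyruvate carboxylase family protein, and ATPS4 (0.87), given as the log2 change at -S minus that at +S.

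The change at -S differed between roots and shoots for 5158 loci, with MSRB5 (1.40), AT1G32190 (1.67), AT3G16800 (1.71), AT3G62460 (-1.63), AT1G17960 (-3.46) and AT2G27402 (-3.12) at the smallest p, given as root minus shoot.

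The change from eil3 to eil3 eil1 differed from that of Col-0 to eil1 in -S roots for 541 loci. The smallest p belonged to the pseudogene AT5G35935 (-4.003), with 60, 89 and 42 counts in Col-0 and 997, 1019 and 1164 in eil1, while all eil3 and eil3 eil1 libraries held 993 to 1308. The others were AT1G25530 (0.93), AT1G54575 (1.83), EXO70H1 (-0.91), FSD1 (1.095), an iron superoxide dismutase, and SIGE (-1.02), a plastid sigma factor. FSD1 stood at 133, 106 and 139 CPM in eil3 and at 203, 207 and 218 CPM in eil3 eil1.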

How the results depend on the processing

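DESeq2 called 662 loci at -S, 37 at +S, 244 for the sulfate difference, 858 for eil1 against Col-0 and 911 for the difference of both genotype changes. With only the compared groups in the fit 200, 3, 50 and 277 were called in the first 4. Of the 351 loci, 350 were called by DESeq2 too and 150 with only the groups compared. With single libraries left out the counts ran from 150 to 296 at -S, 3 to 13 at +S, 30 to 99 for the sulfate difference, 187 to 592 for eil1, 303 to 792 for the genotype changes and 3958 to 5124 for the organ difference. Without the doubted +S libraries (Col-0 and eil1 replicate 1) the counts were 388, 9, 80, 525 and 617. The replicate block gave 413, 11, 100, 548 and 586 for -S, +S, sulfate, eil1 and genotype changes, and all 11 at +S were among the 12. Same-numbered eil3 and eil3 eil1 libraries at -S had correlations of 0.0351, 0.274 and 0.168 and eil3 replicate 1 correlated best with eil3 eil1 replicate 2, so the numbers were not taken as pairs there. At +S the same-numbered libraries correlated best, which the main fit leaves out and the replicate block takes in. Between Col-0 and eil1 at -S the same-numbered correlations were 0.109, 0.0497 and 0.359, and Col-0 replicate 2 correlated best with eil1 replicate 1 (0.17). No paired fit was made for the organs and limma on TPM was not run there. For the organ difference RLE, no count filter and DESeq2 gave 3391 against 1825, 3222 against 1705 and 3850 against 2052 loci higher and lower. For the sulfate difference total-count scaling gave 50 against 39 and limma 30 against 34. Of 1133 values of 81 named called loci, 1009 kept their call and 124 lost it, with 0 reversals, and 33 of 1887 values of uncalled loci became called. The cause was not tested.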

Other observations

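Of the 351 loci called at -S, Col-0 lay between eil3 and eil3 eil1 in 161 (45.9%), eil3 lay between Col-0 and eil3 eil1 in 170 (48.4%), and eil3 eil1 lay between Col-0 and eil3 in 20 (5.7%), by group means. Over the 21954 loci tested the numbers were 5633, 9288 and 7033. The shares among the 351 follow in part from the choice of loci by their eil3 and eil3 eil1 values, and are given as a description.

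Within 1 Mb of EIL1 6 of 360 loci tested were called (1.67%), and within 1 Mb of EIL3 8 of 508 (1.57%), with AT1G73600 lying 56.5 kb from EIL3. On chromosome 4 lay 5 of the 12 loci called at +S, within a stretch of 2.6 Mb from 2036511 to 4637450. The stretch was chosen after values were seen and runs from the first to the last of the 5, so it holds them by construction. Of 106 loci tested in it 6 were called at -S (5.66%), against 1.75% on the whole chromosome. That share is raised by the choice, since 11 of the 12 were called at -S too.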
